A study of Danio rerio with 14 samples.

Results

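The regions described here are 2311 broad stretches of H3K27ac in wild-type (WT) zebrafish embryos that carried little or no H3K4me3. They were found by joining peaks of the WT H3K27ac list that lay no more than 1000 bp apart on chromosomes 1 to 25. Joined domains of 3000 bp or more were kept when at most 10% of their bases lay in WT H3K4me3 peaks. Joining gave 81929 domains, of which 4471 were broad, so the H3K4me3-poor domains made up 2311 of 4471 and the remaining 2160 are called the other broad domains. Chromosome 16 from 36 to 37 Mb was left out, and keeping it added no H3K4me3-poor domain. The domains were chosen by their WT peaks of both marks, so all WT values below are a description, whereas the lists of the mutants took no part in the choice.

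ChIP-seq, in which DNA bound to a modified histone is enriched and sequenced, was done for both marks in whole embryos 4.3 hours post-fertilization (hpf), when WT embryos are at dome stage. MZspg embryos lack the transcription factor Pou5f3 as maternal and zygotic product through the null allele m793, and MZsox19b embryos lack maternal and zygotic Sox19b, a SoxB1 factor, through a small TALEN-made deletion. The sample labels give all 3 genotypes the AB/TL background, and MZspg embryos came from parents that had been rescued by Pou5f3 mRNA as embryos. Mutants were matched to WT by age, and the study describes MZsox19b embryos as late in gastrulation, so genotype and any difference in stage cannot be told apart. H3K27ac was profiled in 1 MZspg library, 2 MZsox19b libraries and 1 WT library, and H3K4me3 in 1 library of each genotype. The MZspg and WT H3K27ac libraries each pooled repeated ChIP experiments, whereas each MZsox19b library came from 1.

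H3K27ac, an acetyl group on a histone tail, marks enhancers and promoters in use, whereas H3K4me3, a methyl mark on that tail, is strongest at promoters. A long acetylated stretch with little H3K4me3 therefore lies mostly outside promoters, and in many cell types such stretches gather several enhancers around genes of cell identity. Pou5f3 and the SoxB1 factors bind enhancers before and during zygotic genome activation, when the embryo starts to transcribe its own genome. In whole embryos, fewer cells with the mark and less mark per cell cannot be told apart. No gene annotation of danRer11, the genome build of the files, was used, so the regions are given by position.

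The H3K27ac lists differed in extent. On chromosomes 1 to 25 they held between 122893 and 173020 peaks and covered 57.2 Mb in MZspg, 89.3 and 109 Mb in the MZsox19b replicates, and 50.8 Mb in WT. The lists hold peaks without reads. By the read totals that the study states, which are not given here, the 4 H3K27ac libraries were of like depth and those of MZsox19b were not the deepest. A longer list finds more domains again, and for this reason the shares below are also given after the peaks of each mutant list were kept from the highest fold enrichment down to the covered length of the WT list, called lists of equal length. These lists reached down to a fold enrichment of 2.38 in MZspg and of 3.61 and 3.88 in the MZsox19b replicates. The cut therefore removes weak peaks up to a higher fold enrichment in MZsox19b, and the WT list was not cut. With 1 H3K27ac library each of MZspg and WT, differences between genotypes had no test. The 95% intervals, Wilson intervals for shares and order-statistic intervals for medians, cover counting error over domains only, and neighbouring domains are not independent.

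In WT, the H3K4me3-poor domains summed to 14.2 Mb and held 19.0% of all bases under WT H3K27ac peaks. Their median width was 4630 bp (interval 4540 to 4762), close to 4666 bp in the other broad domains, and the widest reached 100293 bp. Of the 2311, 831 were 3 to 4 kb wide, 772 were 4 to 6 kb, 449 were 6 to 10 kb, 213 were 10 to 20 kb and 46 were 20 kb or wider. A domain typically consisted of 5 WT peaks, and only 20 domains were a single peak. WT peaks covered a median of 67.1% of a domain. The highest fold enrichment, that is, the ChIP pileup at a summit over local background, had a median of 5.68, which lies at the 92.4th percentile of WT H3K27ac peaks. Wider domains tended to hold higher peaks (Spearman rho 0.53 over 2311 domains, a description, as a wider domain has more peaks to draw its highest from).

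H3K4me3 was absent from 1850 of the domains and covered up to 10% of the other 461. Where present, it was mostly weak, with a median fold enrichment of 2.79, but 31 of the 461 domains overlapped an H3K4me3 peak of 10-fold or more. Whether such a peak lay inside the domain or reached beyond its edge was not measured. The limits of the rule cut through a continuous distribution. The lowest width, 3001 bp, was shared by 3 members, of which chr24:32311915-32314915 had the lowest WT maximum, with a fold enrichment of 3.56, and the domain nearest below the limit, chr9:26078704-26081702, was 2999 bp wide and reached 17.4. H3K4me3 covered 9.97% of the last member inside the other limit, chr6:43384579-43388859, and 10.02% of the first domain outside it, chr24:12596892-12600485. Between 5% and 10% H3K4me3 there were 242 domains, and between 10% and 20% there were 494.

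The H3K4me3-poor domains were covered less in MZspg than in MZsox19b, with the lists as deposited. The share of a domain's bases covered by peaks had a median of 28.6% in MZspg (interval 25.4 to 31.0), 54.9% and 67.4% in the MZsox19b replicates, and 67.1% in WT. The MZsox19b medians averaged 61.2% ± 8.81 (SD, n = 2), so the MZspg median lay below both replicates by more than their spread, and the WT median lay within the range of the replicates. Summed over all domains, peaks covered 38.4% of bases in MZspg, 53.3% and 60.6% in MZsox19b, and 67.8% in WT. With lists of equal length, the gap between the mutants narrowed, with medians of 25.2% in MZspg and 30.8% and 31.1% in MZsox19b. The MZspg median stayed below both replicates. The level of MZsox19b thus depended on how many of its peaks were used. The choice of domains in the WT list raises their WT coverage, so WT values stand beside those of the mutants as a description only.

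The distribution was not a uniform shift. In MZspg, 801 of 2311 domains were covered over less than 10% of their bases, called nearly bare below, against 27.9% of all broad WT domains. A further 840 were covered over 50% or more, against 39.3% of all broad domains. In MZsox19b, 464 domains in replicate 1 and 350 in replicate 2 were nearly bare, against 16.1% and 11.6% of all broad domains. In these replicates 1230 and 1433 were covered over 50% or more, against 60.4% and 68.9%. In WT, most domains were covered over 50% to 90%. The mutant lists thus held many domains at both ends, as they did over all broad domains. The H3K4me3-poor domains had the larger share at the low end and the smaller share at the high end in every mutant list.

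**Figure D1:**
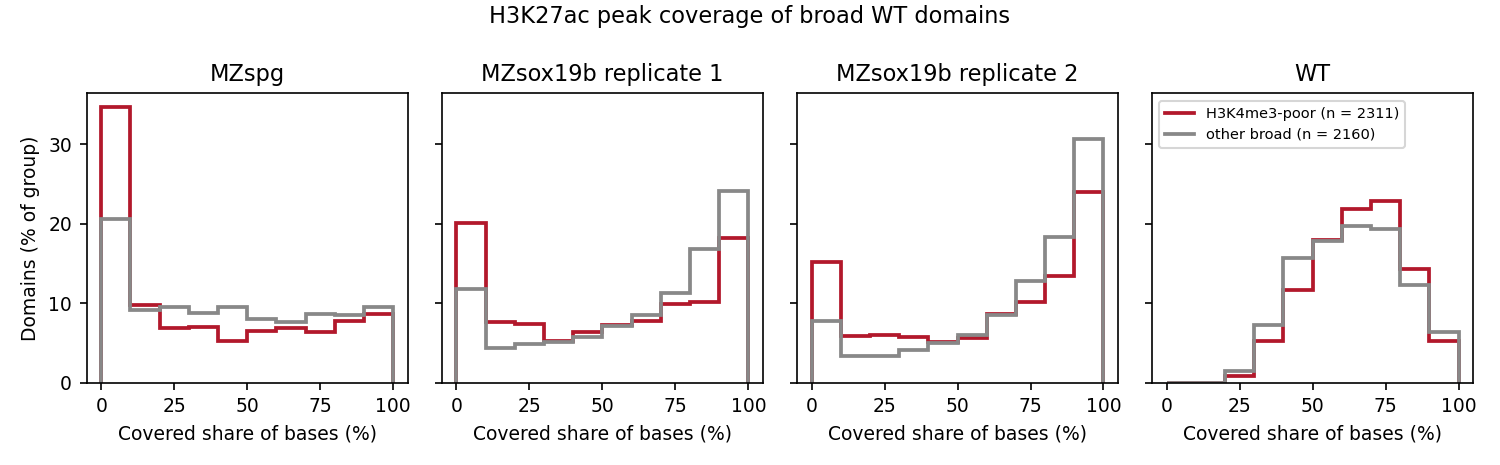
Histogram of the share of a domain's bases covered by H3K27ac peaks (x axis, percent, in steps of 10) against the percentage of domains (y axis), for MZspg, MZsox19b replicates 1 and 2, and WT. Red lines are the 2311 H3K4me3-poor domains and grey lines the 2160 other broad domains; the red line exceeds the grey in the lowest bin of each mutant list, with 34.7% against 20.6% of domains in MZspg.

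The other broad domains, which carried H3K4me3 over more than 10% of their bases in WT, were covered more in every mutant list. Their median covered share was 42.1% in MZspg and 72.9% and 79.4% in MZsox19b, against 64.0% in WT. At the H3K4me3-poor domains the per-domain difference from WT had a median of -33.91 percentage points in MZspg and of -11.05 and 0 points in the MZsox19b replicates. At the other broad domains it was -17.91 points in MZspg and 5.34 and 10.65 points in MZsox19b. Both kinds of domain were chosen by their WT peaks, which tends to lower such differences, so they are a description only. The H3K4me3-poor domains were thus lower than the other broad domains in every mutant list. With lists of equal length the medians of the other broad domains were 36.3% in MZspg and 59.9% and 65.8% in MZsox19b, so the distance between the kinds of domain grew in MZsox19b and shrank in MZspg. Joining peaks up to 2000 bp apart lowered the medians of the H3K4me3-poor domains to 16.2% in MZspg and 38.2% for the mean of the MZsox19b replicates.

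Part of the domains held no mutant peak at all. No MZspg peak of any strength overlapped 498 of the 2311 H3K4me3-poor domains, or 21.5% (interval 19.9 to 23.3), against 16% of all broad WT domains and 10.1% (8.89 to 11.4) of the other broad domains. No peak was found in 259 domains (11.2%) in MZsox19b replicate 1 and in 211 (9.13%) in replicate 2, against 9.68% and 7.36% of all broad domains. The mean of the replicates was 10.2% ± 1.47 (SD, n = 2), and it was 6.76% ± 1.83 in the other broad domains. Both replicates lacked a peak in 168 domains (7.27%, interval 6.28 to 8.40), against 6.24% of all broad WT domains, and 4.31% did when only domains of 5000 bp or more were kept. The excess over the background was thus larger in MZspg than in MZsox19b with the lists as deposited. With lists of equal length, 26.7% of the H3K4me3-poor domains had no MZspg peak and 36.9% and 40.8% had none in the MZsox19b replicates. In the other broad domains the shares were 16.6%, 22.0% and 20.5%, so the order of the kinds of domain stayed. The order of the mutants turned round. Because the MZsox19b lists were cut at a higher fold enrichment, this turn does not compare the mutants on like terms.

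Domains with low WT peaks are missed more easily, and the kinds of domain differed in strength, so they were compared within classes of the highest WT fold enrichment. In the 404 H3K4me3-poor domains of 10-fold or more, 57 (14.1%, interval 11.1 to 17.8) had no MZspg peak, against 11 of 672 other broad domains (1.64%, 0.916 to 2.91). In the class of 6 to 10-fold, the shares were 19.9% and 4.82%. Below 4-fold they were 27.2% and 22.3%, with overlapping intervals, and in MZsox19b the order there was the opposite, with 18.3% and 21.3% in replicate 1 and 13.0% and 13.8% in replicate 2, again with overlapping intervals. Among the strong domains the gap in percentage points was smaller in MZsox19b, with 13 and 10 of the 404 domains missing in the replicates, against 4 and 2 of the 672. The difference between the kinds of domain was therefore widest, in relative terms, where WT signal was highest.

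**Figure D2:**
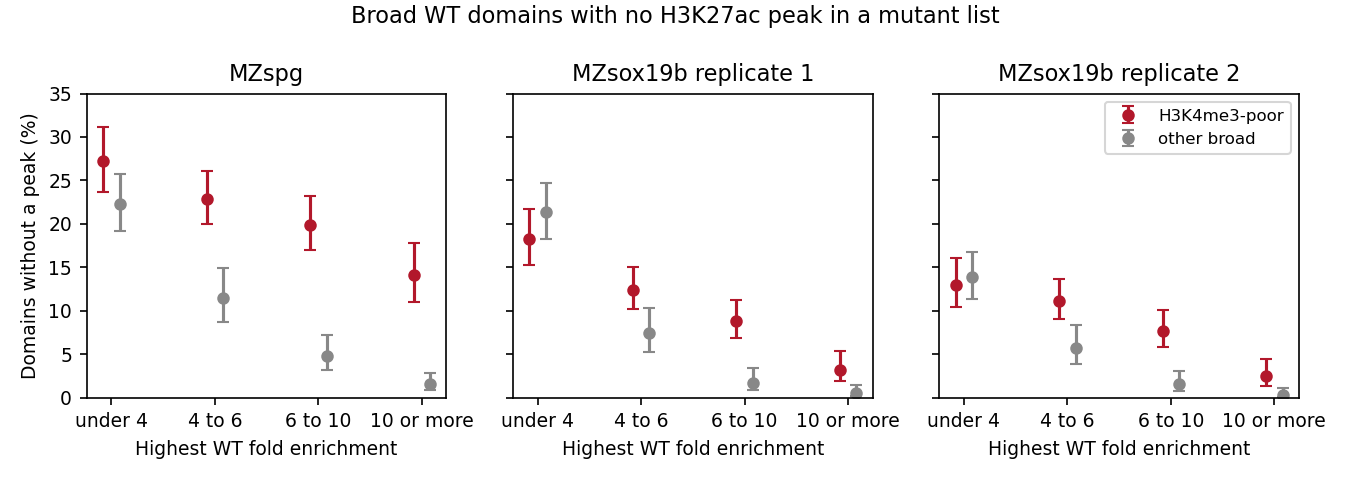
Percentage of broad WT domains without an overlapping H3K27ac peak (y axis) in MZspg and MZsox19b replicates 1 and 2, in 4 classes of the highest WT fold enrichment (x axis). Points are shares and bars Wilson 95% intervals; in MZspg the H3K4me3-poor domains (red) stay at 14.1% in the highest class, where the other broad domains (grey) reach 1.64%.

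The same was seen at equal width. Among domains of 10 to 20 kb, 14.1% of the H3K4me3-poor domains lacked a MZspg peak, against 1.90% of the other broad domains. Weighted to the strength and width classes of the H3K4me3-poor domains, the other broad domains had no peak in 10.5% of cases in MZspg and in 8.01% and 5.64% in the MZsox19b replicates. Chromosome 4 held 504 of the 2160 other broad domains but only 181 of the H3K4me3-poor ones. Without it, 21.9% of the H3K4me3-poor domains and 7.55% of the other broad domains had no MZspg peak. Narrower H3K4me3-poor domains, 7052 of 1000 to 2999 bp, lacked a peak more often, in 39.6% in MZspg and in 29.3% and 23.7% in MZsox19b, and their WT peaks were lower, with a median fold enrichment of 3.09.

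Overlap with a broad domain of a mutant list is a stricter measure than overlap with a peak, because joined domains are built from the same peaks. A joined H3K27ac domain of 3000 bp or more overlapped 43.2% of the H3K4me3-poor domains in MZspg and 58.2% and 66.8% in MZsox19b, against 50.4%, 71.9% and 80.2% of the other broad domains. The number of peaks per domain had a median of 2 in MZspg and of 2 and 3 in the MZsox19b replicates, against 5 in WT. Over all broad domains the medians were 3 in MZspg, 2 and 3 in MZsox19b, and 5 in WT. A single long peak spanned 90% or more of the domain in 2.90% of cases in MZspg and in 7.83% and 10.3% in the MZsox19b replicates. These shares were close to the 2.75%, 8.99% and 9.98% of all broad domains.

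The highest peak of a domain also ranked lower within its own list in MZspg than in MZsox19b. It stood at a median percentile of 79.1 among MZspg peaks, 84.9 and 88.0 among the peaks of the MZsox19b replicates, and 92.4 among WT peaks, counting domains without a peak as 0, so the empty domains lower these medians. In the other broad domains the percentiles were 89.8 in MZspg, 93.9 and 95.8 in MZsox19b, and 93.8 in WT. Ranks within a list do not depend on its scale, but they do depend on how many weak peaks it holds, and the MZsox19b lists held more.

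The domains without a peak were the same only in part between the mutant lists. A total of 1660 of 2311 domains (71.8%) had a peak in all 3 mutant lists, against 77.7% of all broad domains. No mutant list had a peak in 93 (4.02%), against 2.86% of all broad domains. MZspg alone lacked a peak in 349 of the 2311 domains that had one in both MZsox19b replicates, against 11.5% of all broad domains. Another 75 of the 2311 had a MZspg peak and none in either MZsox19b replicate, a share close to the 3.38% of all broad domains. Both counts come from the lists as deposited. With lists of equal length, 26.7% of the domains had no MZspg peak and 34.5% had none in either MZsox19b replicate. By covered share, 601 domains were covered over 50% or more in every mutant list (26%, against 31.3% of all broad domains) and 214 were nearly bare in every one (9.26%, against 6.69%). Another 281 were nearly bare in MZspg and covered over 50% or more in both MZsox19b replicates (12.2%, against 10.5%), and 44 showed the converse (1.90%, against 1.48%). The MZsox19b replicates ranked the domains alike (Spearman rho 0.94 over 2311 domains), and only 5 domains were nearly bare in 1 replicate and covered over 50% or more in the other. Between MZspg and the mean of the MZsox19b replicates rho was 0.40. These coefficients are descriptions over domains that share the WT list as the basis of choice.

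**Figure D3:**
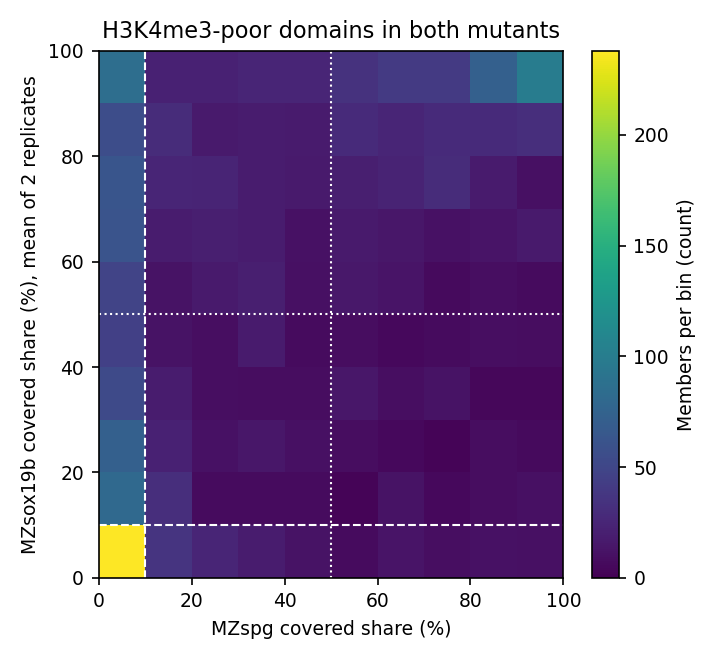
Two-dimensional histogram of the 2311 H3K4me3-poor domains by covered share in MZspg (x axis, percent) and mean covered share of the 2 MZsox19b replicates (y axis, percent), with the number of domains per bin as colour. Dashed lines mark 10% and dotted lines 50%; the fullest bin is the corner below 10% in both mutants, and the next is the opposite corner, above 90% in both.

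The strongest domains of each pattern show the range. At chr25:3236170-3249112, 12943 bp wide, peaks covered 6.53% of bases in MZspg, 85.9% and 95.9% in MZsox19b, and 73.3% in WT, and the highest fold enrichments were 2.88 in MZspg, 18.6 and 13.9 in MZsox19b, and 24.4 in WT. At chr6:50422194-50443147, 20954 bp wide, the covered shares were 4.20% in MZspg, 93.3% and 93.8% in MZsox19b, and 89.3% in WT. Both domains were thus nearly bare in MZspg alone. The converse was seen at chr16:30659812-30668970, where peaks covered 71.8% in MZspg, 4.07% and 7.89% in MZsox19b, and 76.2% in WT. At chr17:33081907-33087801, 5895 bp wide and 66064 bp from the nearest H3K4me3 peak, neither mutant had a peak. In WT, peaks covered 84.0% of its bases and the highest reached 14.6-fold.

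Of the 498 domains without a MZspg peak, those with the highest WT fold enrichment lay on chromosomes 5, 17 and 2. At chr5:42789119-42806626, 17508 bp wide, WT reached 20.8-fold with 83.6% covered, and the MZsox19b replicates 6.74-fold and 5.22-fold with 26.3% and 32.7%. At chr17:13851373-13865429 the MZsox19b replicates covered 50.01% and 55.3%, against 75.4% in WT, and reached 8.89-fold and 7.19-fold, against 20.7-fold. At chr2:18073114-18083533, 35812 bp from any WT H3K4me3 peak, they covered 61.2% and 71.2%, against 80.4% in WT. Their highest fold enrichments there were 5.43 and 4.77, against 18.9 in WT. All 3 domains were empty in MZspg by the way they were picked. In both MZsox19b replicates their coverage was slightly to strongly lower than in WT, and their highest fold enrichment was well below that of WT. Domains picked for their high WT peaks tend to be lower in any other list, so these differences from WT are a description only. Of the 168 domains with no peak in either MZsox19b replicate, the strongest was chr15:39646731-39664832, 18102 bp wide, which reached 4.97-fold with 21.0% covered in MZspg, against 15.2-fold with 77.5% in WT. The next were chr17:33081907-33087801, described above, and chr2:27068092-27074152, which was covered over 3.56% in MZspg, against 86.8% in WT.

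The 5 widest domains differed among themselves. The widest, chr5:43189221-43289513, consisted of 76 WT peaks and was covered over 44.4% in MZspg, 68.0% and 69.5% in MZsox19b, and 50.3% in WT, and its highest fold enrichment was 19.1 in MZspg, 54.8 and 66.6 in MZsox19b, and 10.7 in WT. Its neighbour chr5:43137246-43187572, also among the widest with 50327 bp, likewise had its highest peaks in MZsox19b, with 8.04-fold in MZspg, 42.9-fold and 49.95-fold in MZsox19b, and 9.65-fold in WT. The first of this pair was the highest of all domains by mean MZsox19b fold enrichment. At chr13:16989814-17052318, 62505 bp wide, 1.25% of bases were covered in MZspg, 23.9% and 27.8% in MZsox19b, and 79.2% in WT, with highest fold enrichments of 4.36 in MZspg, 11.98 and 7.76 in MZsox19b, and 22.5 in WT. Here both mutants were lower than WT.

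The remaining widest domains each overlapped a strong H3K4me3 peak. At chr3:45776435-45826725, 50291 bp wide, H3K4me3 covered 9.38% of bases and reached 42.6-fold in MZspg, 208-fold in MZsox19b and 87.8-fold in WT, and H3K27ac peaks covered 54.1% in MZspg, 62.4% and 73.0% in MZsox19b, and 85.3% in WT. This domain also had the highest WT H3K27ac peak of all members, at 33.4-fold. At chr19:29750606-29800008, 49403 bp wide, H3K4me3 reached 59.5-fold in MZspg, 203-fold in MZsox19b and 76.8-fold in WT, and H3K27ac covered 78.8% in MZspg, 91.1% and 94.5% in MZsox19b, and 86.3% in WT. H3K27ac coverage was thus lowest in MZspg at both domains.

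The members next in WT strength varied as much, and picking them by WT strength favours lower values in the other lists. At chr6:29225830-29266984, 41155 bp wide and 5875 bp from the nearest H3K4me3 peak, the highest fold enrichment was 8.74 in MZspg, 15.9 and 15.2 in MZsox19b, and 30.0 in WT, and the covered shares were 30.4% in MZspg, 73.0% and 83.3% in MZsox19b, and 82.8% in WT. At chr7:56582510-56586275 the fold enrichment was 9.69 in MZspg, 35.6 and 27.4 in MZsox19b, and 29.5 in WT. These 2 were lower in MZspg than in WT, and the fold enrichment of chr6:29225830-29266984 was also lower than in WT in both MZsox19b replicates. At chr19:43765416-43777866 the fold enrichment was 41.1 in MZspg, 51.8 and 37.2 in MZsox19b, and 29.3 in WT, and coverage was 85.8% in MZspg, 97.0% and 97.3% in MZsox19b, and 91.4% in WT. At chr14:21990594-21993897 coverage was between 89.6% and 93.1% in all lists. Its fold enrichment was 17.96 in MZspg, 34.8 and 29.3 in MZsox19b, and 28.6 in WT. The last 2 kept their H3K27ac coverage in both mutants, although the highest peak of chr14:21990594-21993897 was lower in MZspg than in WT.

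Some members stood higher in a mutant than in WT. The second highest MZspg peak, after that of chr19:43765416-43777866, lay at chr1:47168938-47172849, which reached 35.3-fold in MZspg and 11.05-fold and 9.67-fold in MZsox19b, against 3.19-fold in WT. The next, chr19:38507011-38519600, reached 35.1-fold in MZspg, 14.9-fold and 15.7-fold in MZsox19b, and 20.3-fold in WT. The highest MZsox19b peaks, besides the widest domain, lay at chr8:38293063-38298026, with 24.8-fold in MZspg, 57.3-fold and 53.0-fold in MZsox19b, and 20.9-fold in WT, and at chr10:11811416-11820475, with 14.5-fold in MZspg, 59.7-fold and 48.7-fold in MZsox19b, and 9.92-fold in WT. Fold enrichment also depends on the efficiency of each immunoprecipitation, and the values were not corrected between lists. Of all members, 31.7% had a highest fold enrichment in MZspg at or above that in WT, and 42.4% and 40.1% did in the MZsox19b replicates, against 44.3%, 68.1% and 65.7% of the other broad domains. The choice of domains by their WT peaks tends to lower all of these shares.

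The study pairs accessible regions with nearby expressed transcripts, and the part of that table used here, all on chromosome 1, named genes near some members. The members given were chosen after their values were seen. Near rbm47, which encodes an RNA-binding protein, peaks covered 75.5% of chr1:19406810-19417216 in MZspg, 74.3% and 90.2% in MZsox19b, and 90.7% in WT. Near appa, an amyloid precursor protein gene, chr1:639528-647333 was covered over 9.11% in MZspg, 48.3% and 72.7% in MZsox19b, and 59.1% in WT. Near fam13a, chr1:50723557-50733680 was covered over 5.48% in MZspg and entirely in both MZsox19b replicates, against 75.3% in WT. The domains near appa and fam13a were nearly bare in MZspg, whereas that near rbm47 was not. Near efnb2b, which encodes an ephrin-B2 ligand of Eph receptors, chr1:7637998-7643120 was covered more in MZspg than in either MZsox19b replicate, with 74.6% in MZspg, 11.6% and 29.8% in MZsox19b, and 60.9% in WT. The domain with the second highest MZspg peak, chr1:47168938-47172849, lay near mhc1zba, an MHC class I gene, and morc3b.

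Distances were measured to WT H3K4me3 peaks of any strength, not to annotated promoters. The nearest WT H3K4me3 peak lay at a median of 7156 bp (interval 6531 to 7729), and 461 domains overlapped one. A further 54 lay within 1 kb, 472 between 1 and 5 kb, 737 between 5 and 20 kb, 546 between 20 and 100 kb, and 41 beyond 100 kb. The nearest peak was often weak, with a median fold enrichment of 3.41, and only 26% of the nearest peaks reached 10-fold. To the nearest peak of 10-fold or more, an alternative added after the data were seen, the median distance was 31852 bp, against 33850 bp for the narrower H3K4me3-poor domains. The median grew to 10984.5 bp when domains with any H3K4me3 base were left out and fell to 4105 bp when up to 20% was allowed, as the rule makes it do.

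The share of domains without a mutant peak went with distance from H3K4me3. Among the 461 domains that overlapped a WT H3K4me3 peak, 14.5% (interval 11.6 to 18) had no MZspg peak, and among the 546 domains 20 to 100 kb away 29.7% did (26 to 33.6). In the MZsox19b replicates the shares were 5.21% and 2.82% in the overlapping domains and 16.8% and 14.7% at 20 to 100 kb. Beyond 100 kb, 34.1% of 41 domains lacked a peak in MZspg and 36.6% and 31.7% in MZsox19b, with wide intervals. Of these 41, 7 lay in a single run on chromosome 6, described below, and are not independent. In MZspg the classes between 1 bp and 20 kb did not follow this order, with shares between 19.1% and 24.1%. The classes differed little in WT strength, with median highest fold enrichments between 5.48 and 6.09, although overlapping domains were wider (median 5533 bp) than those at 20 to 100 kb (4582 bp). In domains of 10-fold or more the MZspg shares were 7.26% in the overlapping domains and 17.8% at 20 to 100 kb. With lists of equal length, they were 19.7% and 36.8% in MZspg over all domains, 21.0% and 47.6% in MZsox19b replicate 1, and 23.9% and 51.1% in replicate 2.

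**Figure D4:**
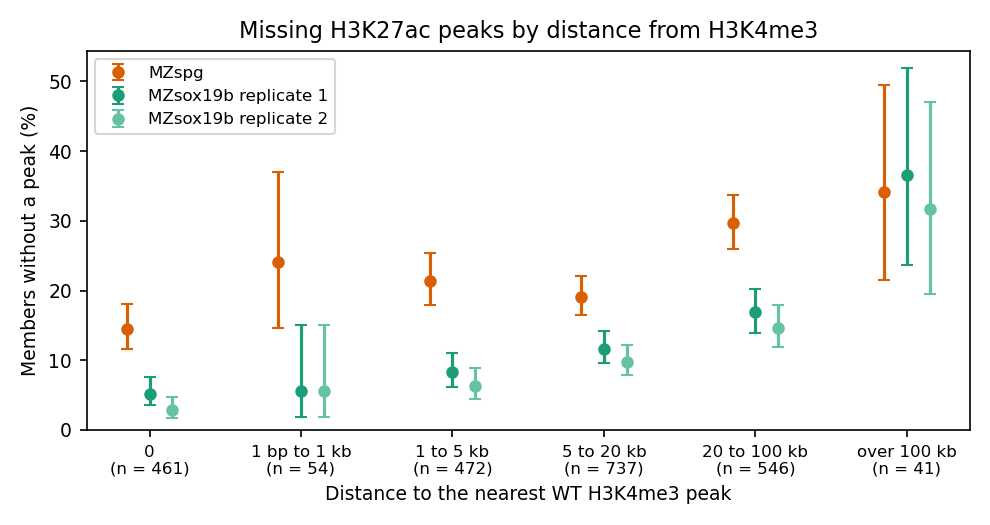
Percentage of H3K4me3-poor domains without an overlapping H3K27ac peak (y axis) by distance to the nearest WT H3K4me3 peak (x axis, number of domains in brackets), in MZspg and MZsox19b replicates 1 and 2. Points are shares and bars Wilson 95% intervals; in MZsox19b replicate 1 the share is 5.21% at distance 0 and 16.8% at 20 to 100 kb.

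H3K4me3 itself stayed scarce in the mutants. The H3K4me3 lists differed in extent too, with 15.1 Mb covered in MZspg, 32.3 Mb in MZsox19b and 27.5 Mb in WT, and by the study's read totals the MZspg library was the shallowest of these. A H3K4me3 peak overlapped 5.02% of the domains in MZspg and 18.9% in MZsox19b, against 19.9% in WT, where the rule bounded it. Of the 1850 domains with no H3K4me3 base in WT, 27 (1.46%) had a peak in MZspg and 193 (10.4%, interval 9.12 to 11.9) in MZsox19b, against 1.70% and 7.38% of all WT H3K27ac domains of 1000 bp or more without WT H3K4me3. An alternative added after the data were seen reduced the MZsox19b list to the covered length of the MZspg list. In it, 5 of the 1850 domains (0.270%) held a MZsox19b peak, against 0.200% of that background. The same cut lowered the share of all H3K4me3-poor domains with a WT peak from 19.9% to 1.73%. It removed the weakest peaks and left the MZspg list whole, so it cannot order the mutants. The domains are wider than that background, and by bases H3K4me3 covered 0.114% of them in MZspg and 0.880% in MZsox19b, against 0.339% and 1.55% of the narrower domains. Most of the new MZsox19b peaks were weak, with a median of 3.04-fold, and 8 of the 193 domains reached 10-fold. These 193 domains were well acetylated in the same genotype, with median covered shares of 91.2% and 92.2% in the MZsox19b H3K27ac replicates, against 46.0% and 60.4% in the remainder of the 1850. In MZspg the corresponding medians were 51.3% and 28.1%, over 27 and 1823 domains. Whether embryo stage plays a part was not tested.

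Along the chromosomes, the domains were spread over all 25 and often lay close together. There were between 1.23 (chromosome 25) and 2.33 (chromosome 19) per Mb, counted to the last peak of any list, with chromosome 4 at 2.32 and a median of 1.68. The other broad domains were far more uneven, with 6.45 per Mb on chromosome 4 and a median of 1.35. Beyond 27 Mb on chromosome 4, there were 115 H3K4me3-poor and 462 other broad domains. The share without a MZspg peak in the 115 was 17.4%, against 16.7% in the 66 at lower positions. By chromosome, the share of H3K4me3-poor domains without a MZspg peak ranged between 11.4% on chromosome 23 and 31.5% on chromosome 2.

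Another H3K4me3-poor domain lay within 50 kb of 1091 domains, or 47.2% (interval 45.2 to 49.2), against 44.4% of the other broad domains with another of their kind. Without chromosome 4 the shares were 48.3% and 34.5%. These 1091 formed 414 runs, of which 150 held 3 or more domains and 25 held 5 or more. Within 5 kb, 21.5% had a neighbour. Domains in runs were slightly wider than lone ones, with medians of 4952 and 4437 bp, and of like strength, with median highest fold enrichments of 5.72 and 5.62. No MZspg peak was found in 18.6% of the domains in runs and in 24.2% of lone ones, and in MZsox19b the shares were 11% and 8.62% in runs and 11.4% and 9.59% alone.

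Neighbours often shared their state in MZspg. Over the 677 neighbouring pairs, the partner of a nearly bare domain was also nearly bare in 62.3% of cases, against 31.2% of all domains in runs, and the partner of a domain covered over 50% or more was so in 70.4%, against 39.8%. Of all 2286 gaps between neighbours, the smallest was 1006 bp, just above the joining limit of 1000 bp, and the 10th percentile was 3670 bp. Some pairs may thus be pieces of a single acetylated stretch. The largest run held 11 domains between chr23:38821247-38839638 and chr23:38976255-38994173, 173 kb in all. Its first 3 domains were covered over 13.9% to 26.9% in MZspg, 22.8% to 40.9% and 48.9% to 52.1% in MZsox19b, and 55.1% to 80.3% in WT, whereas its last 3 were covered over 71.7% to 85.3% in MZspg, 60.7% to 100% and 71.0% to 100% in MZsox19b, and 69.2% to 90.7% in WT. The strongest of the run, chr23:38916864-38937177, reached 21.7-fold in MZspg, 33.5-fold and 24.996-fold in MZsox19b, and 23.2-fold in WT. The ends of the run thus differed, and the 5 domains between them were covered over 33.6% to 76.7% in MZspg.

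In other runs, chosen after their values were seen, the mutants differed from each other. MZspg lay mostly above MZsox19b on chromosome 6 and below it on chromosome 16. On chromosome 6, 7 domains between 19815358 and 19879300, each more than 100 kb from any WT H3K4me3 peak, were covered over 61.0% to 95.01% in MZspg and 41.7% to 87.0% in WT, and 4 of them had no peak in either MZsox19b replicate. Within the same run, chr6:19843368-19846629 was covered over 70.8% and 80.4% in the MZsox19b replicates. On chromosome 16, 7 domains between 35480115 and 35532920 were covered over 0 to 11.4% in MZspg, 15.1% to 75.5% and 39.0% to 82.5% in MZsox19b, and 38.1% to 83.0% in WT. The run on chromosome 6 was thus kept in MZspg and mostly missing in MZsox19b, and that on chromosome 16 was nearly empty in MZspg and present in both MZsox19b replicates. Of the 44 domains kept in MZspg and nearly bare in both MZsox19b replicates, no more than 4 came from any run, and they lay on 21 chromosomes at a median of 21454.5 bp from H3K4me3, against 5706 bp for the 601 domains kept in every mutant list.

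**Figure D5:**
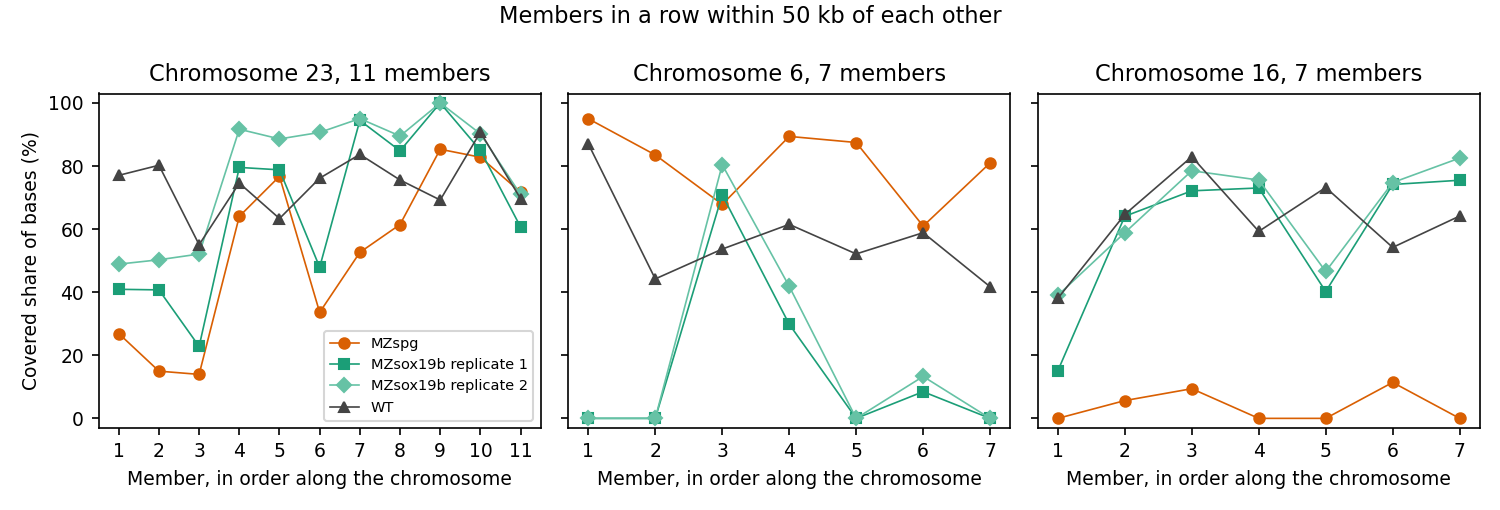
Share of bases covered by H3K27ac peaks (y axis, percent) for members in order along the chromosome (x axis) in 3 runs, in MZspg, MZsox19b replicates 1 and 2, and WT. On chromosome 6 the MZspg points lie at 61.0% or more while 4 of 7 members are at 0 in both MZsox19b replicates, and on chromosome 16 the MZspg points lie at 11.4% or less.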

How the data were processed

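Peak lists of 7 ChIP libraries were used, and their 7 inputs were not analysed here. According to the submitters' processing notes and the study's methods, the authors mapped paired-end reads to danRer11 with Bowtie2 2.3.2.2. Peaks of each library were called with MACS2 against pooled inputs, as given in the study's reporting summary. In the deposited lists, the fold enrichment column is the ratio of the ChIP pileup at the summit to local background, and the authors' −log10 p and −log10 q columns give its significance (lowest −log10 q in any list 1.301). The deposited score column is a multiple of −log10 q and was not used. Fold enrichment and list length change with depth and enrichment efficiency, which the lists do not carry, and the read totals that the study states were not used in any calculation.

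Peaks were joined, intersected (1 bp or more) and measured with Python 3.11.15, NumPy 2.4.6, pandas 2.3.3 and SciPy 1.17.1, and plotted with matplotlib 3.10.9. Alternatives were the joining gap, the width and H3K4me3 limits, a stricter q, the definition of a lost domain, lists of equal length and leaving out a MZsox19b replicate. Interval functions were tested on simulated data. Positions are printed 1-based. Sample titles gave the groups and the replicate numbers. No test between genotypes was made.

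Members, lists and comparisons were chosen with earlier results of these data known. Named by rule were the 5 widest members, the 5 with the highest WT fold enrichment, the 3 strongest in WT without a MZspg peak and without a MZsox19b peak, the 3 highest in each mutant, the largest run, and the domains next to each limit. The strongest of each pattern and the gene-named members were chosen after their values were seen. Planned gene lists, sequences and motifs needed a danRer11 genome or annotation and were not analysed here.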

Additional observations from a re-analysis of the deposited data

Results flagged for a closer look

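At several named domains the mutants lay on opposite sides of WT in covered share, with both MZsox19b replicates on the other side of WT from MZspg. These differences between the mutants were not tested, and the domains of the runs on chromosomes 6 and 16 and those named as examples of a pattern were chosen after such differences had been seen.

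Values are the covered share in MZspg minus that in WT, in percentage points. Among the widest and strongest domains, the difference was -5.863 at chr5:43189221-43289513, -5.907 at chr5:43137246-43187572, -7.508 at chr19:29750606-29800008, -12.639 at chr7:56582510-56586275, -5.534 at chr19:43765416-43777866 and -1.574 at chr14:21990594-21993897. In the run on chromosome 23 it was -10.552 at chr23:38858966-38872394, -31.063 at chr23:38903286-38907969 and -14.118 at chr23:38916864-38937177. On chromosome 1 it was -27.654 at chr1:29862091-29883837, -69.814 at chr1:50723557-50733680, -0.523 at chr1:45701764-45705970 and -34.61 at chr1:46811693-46818979. It was -66.785 at chr25:3236170-3249112 and -85.091 at chr6:50422194-50443147, and in the run on chromosome 16 -59.286 at chr16:35500086-35506697, -42.8 at chr16:35514599-35519369 and -64.151 at chr16:35526522-35532920. In all of these both MZsox19b replicates were covered more than WT.

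The opposite was seen where MZspg was covered more than WT and both MZsox19b replicates less. The difference was 13.722 at chr1:7637998-7643120 and 13.052 at chr9:53093012-53103737. In the run on chromosome 6 it was 7.966 at chr6:19815358-19819462, 39.306 at chr6:19826863-19830813, 27.887 at chr6:19848142-19854696, 35.332 at chr6:19860318-19863436, 2.096 at chr6:19865567-19871005 and 39.269 at chr6:19873528-19879300.

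On sequences outside chromosomes 1 to 25, which entered only the alternative with all sequences, the same rule found 206 domains. Of these, 28.2% had no peak in MZspg and 15.5% and 11.7% had none in the MZsox19b replicates.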

How the results depend on the processing

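Over the alternatives, 44 values of the main results moved by more than their interval or replicate spread (for the number of domains, by more than 1.5-fold) and 43 did not. Joining peaks within 500 bp gave 1443 domains, 5.75% without a MZsox19b peak, medians of 40.1% in MZspg and 77.3% in MZsox19b, and 44.01% with a neighbour within 50 kb. Joining within 2000 bp gave 3961 domains, 23.5% and 9.14% without a MZspg or MZsox19b peak, medians of 16.2% and 38.2%, a distance of 5993 bp and 50.6% with a neighbour. A minimum width of 2000 bp gave 4120 domains, 26.1% and 10.2% without a peak, a MZspg median of 23.7% and 56.7% with a neighbour. A minimum of 5000 bp gave 1022 domains, 16.05% and 4.31%, 33.2%, 6097 bp and 34.5%. With no H3K4me3 base allowed, 23.3% had no MZspg peak, the distance was 10984.5 bp and 42.2% had a neighbour. With up to 20%, these were 19.6%, 4105 bp and 51.02%. Counting a domain as found only at 10% coverage left 34.7% and 14.1% without a MZspg or MZsox19b peak. Lists of equal length gave 26.7% and 34.5%, with medians of 25.2% and 31.3%. Among domains above the median WT fold enrichment, 18.6% and 4.85% had no peak and the MZspg median was 33.1%. Leaving out a MZsox19b replicate gave 9.13% to 11.2% without a MZsox19b peak. The distance measured from the highest WT summit was 10089 bp, and 57.3% had a neighbour within 100 kb. Chosen after the data were seen, H3K4me3 peaks of 10-fold or more alone gave 31852 bp, the MZsox19b H3K4me3 list at the covered length of that of MZspg left 0.270% of the domains without WT H3K4me3 with a MZsox19b H3K4me3 peak, and leaving out chromosome 4 moved no main result of the H3K4me3-poor domains beyond its interval. No paired analysis was possible because replicate numbers occur only in the MZsox19b H3K27ac libraries and their inputs and no test was made. Depth and enrichment limit which weak domains could be found again, and the lists hold no reads with which to measure this.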
